A study of Schizosaccharomyces pombe with 39 samples.

Results

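Fission yeast (Schizosaccharomyces pombe) cells that had been depleted of the chromatin protein Epe1 for 96 h were compared with untreated cells of the same strain at 0 h, gene by gene. The comparison took every library that the labels place at 96 h with TN or at 0 h without TN in the time course. These were 6 of the 39 libraries of the series, 3 in each group. TN stands for thiamine together with 1-naphthaleneacetic acid, an auxin analogue. The 96 h cells carried an mst2 deletion (mst2D), an epe1 gene behind the thiamine-repressible nmt81 promoter with a FLAG tag and an auxin-inducible degron (AID), and the auxin receptors OsTIR1 and AtTIR1, both fused to skp1 under the adh15 promoter at ade6, and had TN for 96 h. The 0 h cells had the same genotype, the mst2 deletion included, and no TN. Both were grown to log phase in the medium that the labels call EMMC, and polyadenylated RNA was sequenced. Cells without the degron that had received TN were not analysed here, so the response to thiamine and auxin and the response to Epe1 loss cannot be told apart. The labels do not say whether the 3 libraries of a group came from separate cultures, so the p-values measure the spread between these samples.

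In fission yeast, heterochromatin is marked by methylation of histone H3 at lysine 9. Clr4 is the only enzyme known to place this mark in this organism, HP1 proteins such as Swi6 bind it, and the marked regions lie at centromeres, at the mating-type locus and next to telomeres. Epe1 is a JmjC-domain protein known to limit the spread of heterochromatin, and Mst2 is a histone acetyltransferase that also opposes silencing. The subtelomeres hold many genes for transporters, stress and meiosis that are expressed weakly in growing cells.

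Library totals ran from 23434602 to 26437724 counts at 96 h and from 20347886 to 26418837 counts at 0 h. Levels are given as CPM, the count scaled to a common library total after TMM normalization, and are not divided by gene length, so they are compared between samples and not between genes. Changes are fitted log2 ratios of 96 h over 0 h from edgeR's quasi-likelihood test over all 18 time-course libraries, and p-values were adjusted by Benjamini and Hochberg's method over all 6664 genes tested. The targeted gene was looked at first. The epe1 gene (chromosome III, 1431048 to 1435036, minus strand, build ASM294v2) is overlapped over 48.5% of its length by the non-coding gene prl67, and reads over an overlap appear in the counts of both genes. The whole gene had 326, 282 and 196 CPM at 96 h, against 313, 330.4 and 337 CPM at 0 h (log2 change -0.29 ± 0.20 (SE), adjusted p = 0.397). Outside prl67, as the counts of epe1 less those of prl67, its level was 33.3, 33.1 and 28.4 CPM at 96 h, against 74.5, 86.1 and 89.7 CPM at 0 h, so that every 96 h library lay below every 0 h library. The mean was 37.9% of that at 0 h (2-sided exact permutation p = 0.1, the smallest that 3 against 3 libraries can give). RNA counts do not measure the degron's action on the protein. The deleted mst2 gene could not be checked, since sec3 covers 98.5% of it: it was counted at 75.7 ± 4.05 CPM at 96 h and 74.1 ± 2.10 CPM at 0 h (SD, n = 3 each), and subtracting the counts of sec3 left none in any library.

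At 96 h, 833 of 6664 genes (12.5%) had changed at an adjusted p under 0.05. Of these, 504 (7.56%) were higher and 329 (4.94%) were lower than at 0 h. With a change of at least 2-fold, 174 genes were higher (2.61%) and 67 were lower (1.01%). Scaling to library totals instead of TMM gave 601 higher and 210 lower genes, so the balance of the small changes depends on the scaling, while 179 and 62 genes passed the 2-fold limit. The median log2 change was 0.68 among the higher genes and -0.40 among the lower genes. The largest changes were rises near the ends of chromosomes I and II. Of 85 genes at least 4-fold higher, 58 lay within 100 kb of such an end, as did 160 of the 6664 genes tested. Of 23 genes at least 4-fold lower, 4 did. Protein-coding genes gave 318 rises and 247 falls among 5052 tested, non-coding RNAs 175 rises and 81 falls among 1582, and annotated pseudogenes 11 rises and 1 fall among 30. Of the 833 changed genes, 826 had non-overlapping groups, as had 34.2% of all genes tested. Leaving out 0 h replicate 1 lowered the count of changed genes to 494, leaving out 0 h replicate 2 to 506, and leaving out 96 h replicate 2 to 515.

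**Figure D1:**
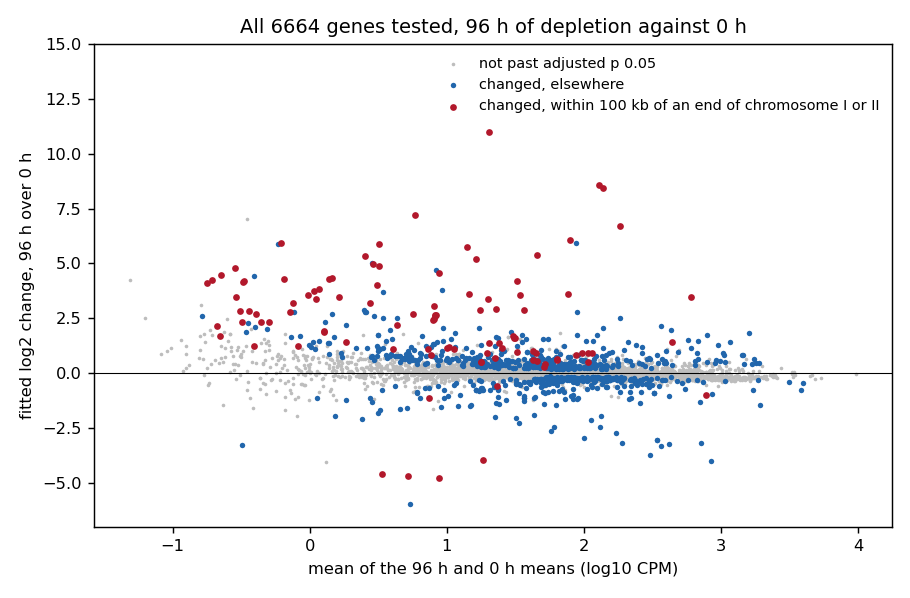
Fitted log2 change of 96 h over 0 h (vertical axis) against the average of the 96 h and 0 h mean levels (horizontal axis, log10 CPM), 1 point per gene tested. Changed genes within 100 kb of an end of chromosome I or II (red) make up most of the points above a log2 change of 2, where 58 of 85 changed genes are red, while most changed genes elsewhere (blue) lie close to 0.

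The gene for the methyltransferase itself was among the genes that fell. The clr4 gene (chromosome II, 453996 to 458487, minus strand) had 11.4, 13.6 and 12.6 CPM at 96 h, against 50.5, 47.98 and 54.5 CPM at 0 h (log2 change -2.02 ± 0.14 (SE), adjusted p = 1.29e-07). The groups were far apart, and the lowest 0 h library held more than 3 times the CPM of the highest 96 h library. The gene meu6, which encodes a pleckstrin homology domain protein, lies wholly inside clr4 on the other strand and had 8.34, 9.68 and 8.95 CPM at 96 h, against 36.5, 33.9 and 36.6 CPM at 0 h (log2 change -1.99, adjusted p = 8.90e-07). Reads of clr4 and meu6 over their overlap cannot be told apart, since the use of strand in counting is not given in the sources used here. Outside meu6, clr4 was at 3.07, 3.95 and 3.66 CPM at 96 h, against 13.98, 14.1 and 17.9 CPM at 0 h, with no overlap (2-sided exact permutation p = 0.1, the smallest possible).

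The genes on either side of clr4 changed less. On one side, rxt2, which encodes a subunit of histone deacetylase complexes, fell to 40.8 ± 3.17 CPM at 96 h, against 56.5 ± 3.28 CPM at 0 h (SD, n = 3 each; log2 change -0.47, adjusted p = 7.95e-04). The next 2 genes did not pass the test: arg12, an enzyme of arginine synthesis, had a log2 change of -0.10 and SPNCRNA.1360 one of -0.16. On the other side, the non-coding RNA SPNCRNA.1361 fell to 6.97 ± 0.386 CPM, against 10.3 ± 1.13 CPM at 0 h (SD, n = 3 each; log2 change -0.57, adjusted p = 0.00589). The RNA that overlaps SPNCRNA.1361 on the other strand, SPBC428.10-antisense-1, had a log2 change of -0.04 and did not pass. A fall of about 2 log2 units was measured in clr4 and meu6, and none of their 5 other neighbours moved by as much as 2-fold.

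Over the time course, clr4 averaged 50.99 CPM at 0 h, 56.9 CPM at 24 h, 48.4 CPM at 48 h, 23.6 CPM at 72 h, 12.5 CPM at 96 h and 14.01 CPM at 120 h. The level at 96 h was lower than that at 72 h, where the libraries had 26.9, 24.1 and 19.9 CPM (log2 change -0.91, adjusted p = 0.00466). That call was not made when 96 h and 72 h were fitted alone (adjusted p = 0.0562). Between 96 h and 120 h no change passed the test (log2 change 0.16, adjusted p = 0.534), and the 120 h libraries had 10.7, 14.1 and 17.2 CPM. Outside prl67, epe1 was already at 35.6 ± 4.84 CPM (SD, n = 3) after 24 h, when the mean of clr4 was above that at 0 h.

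**Figure D2:**
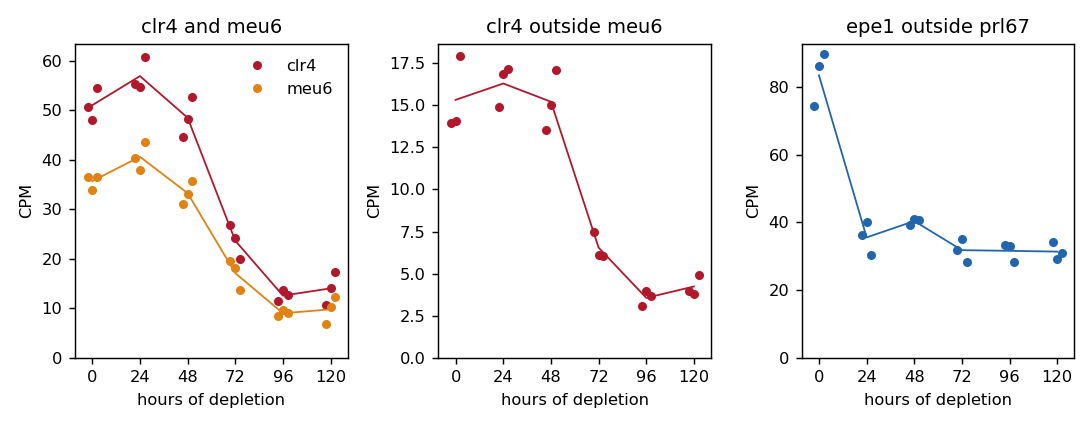
Levels in CPM at each of the 6 times of depletion, 1 point per library with a line through the means, for clr4 and the gene meu6 inside it (left), for clr4 counts outside meu6 (middle) and for epe1 counts outside prl67 (right). Outside prl67, epe1 averaged 35.6 ± 4.84 CPM at 24 h and 83.4 ± 7.91 CPM at 0 h (SD, n = 3 each), while both clr4 readings have their lowest mean at 96 h.

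Few of the other genes of the silencing machinery passed the test. Over all genes tested 12.5% had changed, and at that share lists this small would also hold few calls. Of the other 5 genes of the Clr4 methyltransferase complex, 0 passed with edgeR or DESeq2 or had an unadjusted p under 0.05. The HP1 and chromodomain genes swi6, chp1, chp2 and tas3 gave 0 calls among 4 with edgeR's quasi-likelihood test, 1 at an unadjusted p under 0.05 and 1 (chp1) with DESeq2's Wald test. swi6, for example, had 166, 172 and 169 CPM at 96 h, against 171, 170.4 and 181 CPM at 0 h. Of 9 RNA interference genes, among them ago1, dcr1 and rdp1, and of 7 genes for histone deacetylases and the SHREC complex, 0 passed either the edgeR quasi-likelihood test or DESeq2's Wald test, while 2 and 1 had an unadjusted p under 0.05, and no log2 change in either list was outside -0.23 to 0.18. Among 6 shelterin genes, which protect telomeres, taz1 alone passed with 90.9, 94.7 and 92.9 CPM at 96 h, against 104, 104 and 114 CPM at 0 h (log2 change -0.21, adjusted p = 0.0241). The taz1 call was lost with library totals (adjusted p = 0.111) and with 96 h and 0 h fitted alone (0.0540). It was also lost without 0 h replicate 3 (0.110) or 96 h replicate 1 (0.0701), 2 (0.0512) or 3 (0.0560).

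Genes repressed by thiamine were lower, and thiamine is part of the treatment. All 4 genes of the thiamine list that were tested were lower, against a background of 4.94%. The thiamine transporter gene thi9 had 73.5, 60.4 and 67.4 CPM at 96 h, against 627, 681 and 678 CPM at 0 h (log2 change -3.30 ± 0.11 (SE), adjusted p = 9.82e-12). The acid phosphatase gene pho4, whose product name in the annotation is thiamine-repressible, had 141, 129 and 155 CPM at 96 h, against 1196, 1359 and 1279 CPM at 0 h (log2 change -3.18, adjusted p = 1.44e-10). The vitamin B6 importer gene bsu1 (chromosome I, 3549682 to 3552067, plus strand) had 37.2, 40.5 and 48.1 CPM at 96 h, against 461, 667 and 562 CPM at 0 h (log2 change -3.75, adjusted p = 2.20e-11). The thiamine synthesis gene thi4 fell less, to 407 ± 25.3 CPM, against 1005 ± 10.1 CPM at 0 h (SD, n = 3 each; log2 change -1.30, adjusted p = 1.43e-08).

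Of the 10 protein-coding genes with the largest falls, 5 more lay outside both that list and the subtelomeres. SPCC794.03, annotated as a thiamine transporter, had 35.9, 40.8 and 37.7 CPM at 96 h, against 319.7, 386 and 318 CPM at 0 h (log2 change -3.16, adjusted p = 2.94e-11). SPBP8B7.18c, annotated as phosphomethylpyrimidine kinase Thi201, fell to 73.5 ± 2.14 CPM, against 606 ± 50.9 CPM at 0 h (SD, n = 3 each; log2 change -3.04). It is fully covered by the antisense RNA SPBP8B7.18c-antisense-1, whose counts cannot be separated from it. SPBC530.07c, of the TENA/THI family, had 81.99, 69.5 and 91.1 CPM at 96 h, against 651, 814 and 772 CPM at 0 h. The neighbours SPCC162.03, annotated as a dehydrogenase, and SPCC162.02c, an AMP-binding dehydrogenase, fell with log2 changes of -2.97 and -2.74. Groups without overlap were required of these genes, and each had its highest 96 h library far below its lowest 0 h library. Between 24 h and 120 h the means of bsu1, for example, stayed between 37.7 and 49.4 CPM.

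**Figure D3:**
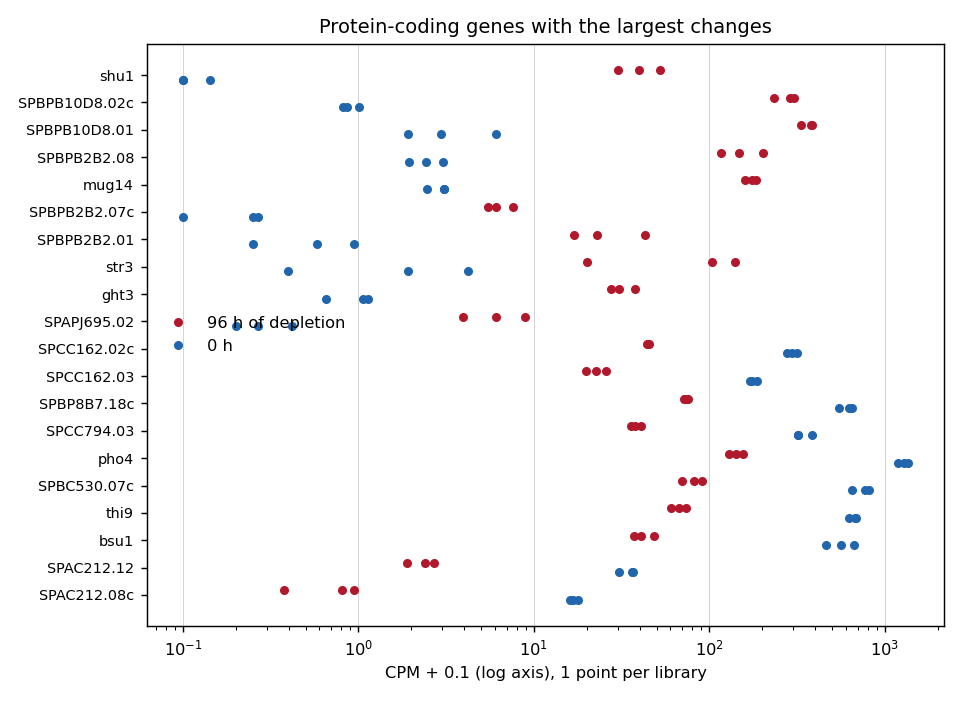
Levels of the 10 protein-coding genes with the largest rises (upper) and the 10 with the largest falls (lower) at 96 h (red) and 0 h (blue), 1 point per library, as CPM + 0.1 on a log axis. Only genes whose groups do not overlap could be chosen, and shu1 and SPBPB2B2.07c include 0 h libraries with no counts.

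The subtelomeres of chromosomes I and II held most rises of at least 4-fold, 58 of 85, but not most rises. Of the 504 higher genes 409 lay outside them, as did 97 of the 174 that were at least 2-fold higher. Of 166 genes within 100 kb of the outermost gene of chromosomes I and II, 160 were tested: 95 were higher and 7 lower, 59.4% and 4.38%, against 7.56% and 4.94% of all genes. Their median log2 change was 1.26, against 0.00 over all genes tested, and was the same with genes that had no counts at 0 h set at their bound. Among the 90 that overlap no other gene, 42 were higher and 7 lower. Leaving out 1 library gave between 71 and 88 higher genes, 6 or 7 lower genes and a median between 1.16 and 1.40. The left end of chromosome I had 31 higher and 4 lower of 45 genes, its right end 27 and 1 of 47. The left end of chromosome II had 16 higher and 0 lower of 31, and its right end 21 and 2 of 37. All 4 ends thus had more rises than falls. Chromosome III, whose ends carry ribosomal DNA, had 2 higher and 3 lower of 51 genes within 100 kb of the left end and 14 higher and 3 lower of 53 within 100 kb of the right end.

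Within the ends of chromosomes I and II the change varied with the distance from the outermost gene. From 0 to 25 kb, 7 genes were higher and 5 lower of 24, with a median log2 change of -0.35. From 25 to 50 kb, 17 of 33 were higher (median 1.53), from 50 to 75 kb 36 of 51 (median 2.82) and from 75 to 100 kb 35 of 52 (median 0.73), and falls numbered 0, 0 and 2. From 100 to 150 kb, 43 of 107 genes were still higher, with 5 lower and a median of 0.35. From 150 to 200 kb the counts were 9 higher and 5 lower of 124, close to the background. Between 100 and 150 kb the share of rises was highest at the left end of chromosome II, where 14 of 24 genes were higher (median 1.61), against 12 of 31 at the left end of chromosome I, 11 of 30 at its right end and 6 of 22 at the right end of chromosome II.

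**Figure D4:**
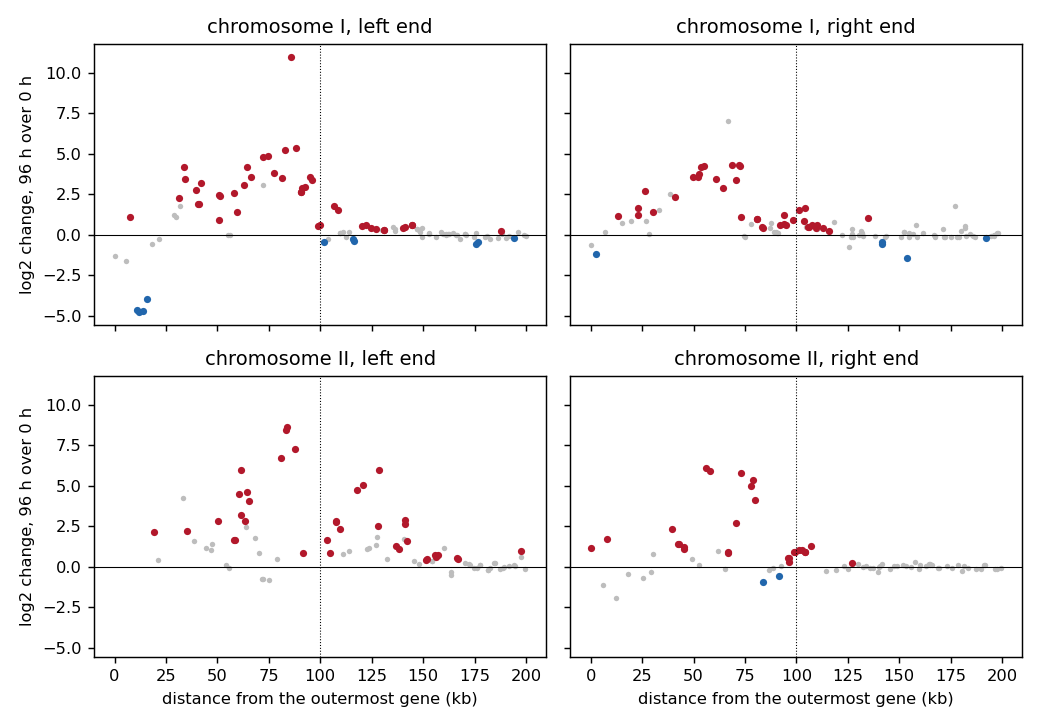
Fitted log2 change of 96 h over 0 h (vertical axis) by distance in kb from the outermost gene of each end of chromosomes I and II (horizontal axis, to 200 kb), 1 point per gene; red and blue mark changed genes that were higher and lower, grey those that did not pass, and the dotted line marks 100 kb. Most rises lie between 25 and 150 kb, and 4 falls stand together within 25 kb at the left end of chromosome I.

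At the left end of chromosome II, the arylsulfatase gene SPBPB10D8.02c (chromosome II, 83229 to 85631, minus strand) had 233, 303 and 289.7 CPM at 96 h, against 0.720, 0.756 and 0.908 CPM at 0 h (log2 change 8.44 ± 0.51 (SE), adjusted p = 2.14e-08). Its neighbour SPBPB10D8.01, annotated as a cysteine transporter, had 332, 381 and 383 CPM at 96 h, against 1.82, 2.87 and 5.95 CPM at 0 h (log2 change 6.72, adjusted p = 2.90e-06). Both had single-digit levels in all 0 h libraries and 3-digit levels in all 96 h libraries. The pseudogene SPBPB10D8.03 beside them rose to 11.7 ± 2.25 CPM, against 0.0697 ± 0.0886 CPM at 0 h (SD, n = 3 each; log2 change 7.23), while SPBPB10D8.04c, a transporter gene, rose less (log2 change 0.82). The antisense RNA SPBPB10D8.02c-antisense-1 lies inside SPBPB10D8.02c and had nearly its counts (216, 285 and 268 CPM at 96 h), so the strand that rose is not known. Nearby, SPBPB21E7.04c, annotated as a catechol O-methyltransferase, had 22.7, 13.6 and 14.4 CPM at 96 h, against 1.10, 0.478 and 0.504 CPM at 0 h (log2 change 4.59, adjusted p = 7.15e-06). The non-coding RNA SPNCRNA.1304 overlaps it and rose with it (log2 change 4.03).

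Farther in from the same end, between 100 and 150 kb, lie mug14 and pfl7. The gene mug14 (chromosome II, 128660 to 129742, plus strand), annotated as an adducin with a role in the actin cytoskeleton, had 175, 160.0 and 184 CPM at 96 h, against 2.96, 2.99 and 2.37 CPM at 0 h (log2 change 5.95 ± 0.69 (SE), adjusted p = 3.52e-05). The flocculin gene pfl7, which encodes a cell-surface adhesin, rose to 16.1 ± 3.04 CPM, against 0.622 ± 0.122 CPM at 0 h (SD, n = 3 each; log2 change 4.69, adjusted p = 2.14e-09). The non-coding RNA SPNCRNA.293 overlaps pfl7 and had 4.56, 4.67 and 7.16 CPM at 96 h, against 0.0423, 0.119 and 0.353 CPM at 0 h. The mean of mug14 was higher at 48 h (941 CPM) than at 96 h (173 CPM), and 72 h replicate 1 had 651 CPM while its other 2 libraries had 158 and 155 CPM.

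At the right end of chromosome II the genes of the SPBPB2B2 group split. The uncharacterized gene SPBPB2B2.08 (chromosome II, 4475953 to 4476674, plus strand) had 148, 202 and 117 CPM at 96 h, against 2.33, 1.83 and 2.92 CPM at 0 h (log2 change 6.05 ± 0.57 (SE), adjusted p = 4.01e-06). SPBPB2B2.07c beside it had 6.02, 7.47 and 5.37 CPM at 96 h, against 0.169, 0 and 0.151 CPM at 0 h (log2 change 5.87, adjusted p = 6.01e-06), and the amino-acid permease gene SPBPB2B2.01 had 16.8, 43.02 and 22.8 CPM at 96 h, against 0.847, 0.478 and 0.151 CPM at 0 h (log2 change 5.75, adjusted p = 2.86e-06). All 3 were higher in every 96 h library than in any 0 h library, as the rule that named them required. The galactose genes of the same region moved less: gal1, the galactokinase gene, had 33.9, 45.6 and 23.8 CPM at 96 h, against 14.7, 14.7 and 10.4 CPM at 0 h (log2 change 1.37, adjusted p = 0.0109), gal10 a log2 change of 1.18 (adjusted p = 0.0165), and gal7 did not pass (log2 change 0.44, adjusted p = 0.247). The gal1 gene is overlapped over 58.8% of its length by gal1-antisense-1 and gal10 over 92.8% by SPBPB2B2.11, whose reads cannot be told apart from theirs. Among the same genes, SPBPB2B2.05 and SPBPB2B2.09c did not pass, with log2 changes of -0.15 and 0.10. The acid phosphatase gene pho1, also within 100 kb, fell to 521 ± 73.8 CPM, against 1024 ± 215 CPM at 0 h (SD, n = 3 each; log2 change -0.97, adjusted p = 8.40e-04). Its neighbour pho84, a phosphate transporter gene, and tgp1, the other genes of the 3 on the phosphate list, did not pass (log2 changes -0.20 and 0.09). The RNA SPBP4G3.03-antisense-1 of this region rose too (3.89, 9.64 and 3.41 CPM at 96 h, against 0.212, 0.159 and 0.151 CPM at 0 h).

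At the left end of chromosome I, rises stood side by side: all 13 genes tested from 75 to 100 kb were higher (median log2 change 3.39). The gluconate symporter gene ght3, of the hexose transporter family, had 30.3, 37.6 and 27.6 CPM at 96 h, against 0.551, 1.04 and 0.958 CPM at 0 h (log2 change 5.22 ± 0.40 (SE), adjusted p = 3.40e-07). Next to it, shu1 (chromosome I, 85566 to 86324, minus strand), whose product takes up haem at the cell surface, had 52.2, 39.9 and 30.001 CPM at 96 h, against 0.0423, 0 and 0 CPM at 0 h. Since shu1 had 1 count in the 0 h libraries together, its change is given as a ratio 2805 with an exact 95% counting interval from 503 to 110825 (adjusted p = 0.00258). The siderophore-iron transporter gene str3 followed with 104, 20.1 and 140.5 CPM at 96 h, against 0.296, 4.10 and 1.82 CPM at 0 h (log2 change 5.39, adjusted p = 0.0109), and its adjusted p was 0.0524 without 0 h replicate 1. On the outer side, the uncharacterized gene SPAPJ695.02 rose to 6.23 ± 2.49 CPM, against 0.196 ± 0.111 CPM at 0 h (SD, n = 3 each; log2 change 4.90). The dihydroxyacetone kinase gene dak2 had 69.5, 67.2 and 48.6 CPM at 96 h, against 1.44, 4.70 and 4.08 CPM at 0 h (log2 change 4.18, adjusted p = 9.11e-06), and SPAC977.17, a gene of the MIP superfamily that overlaps it, had a log2 change of 3.57.

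At the right end of chromosome I, SPAC869.05c, a sulfate transporter gene, had 1324, 913 and 1090.3 CPM at 96 h, against 96.2, 88.1 and 114 CPM at 0 h (log2 change 3.48, adjusted p = 3.89e-04). The nitric oxide dioxygenase gene SPAC869.02c had 253, 104 and 63.9 CPM at 96 h, against 9.91, 9.48 and 15.7 CPM at 0 h (log2 change 3.59, adjusted p = 0.00230). In both, each 96 h library was above each 0 h library, although the 96 h values of SPAC869.02c spread widely. The melibiase gene mel1 and pcm2, a protein repair methyltransferase gene, rose but stayed at low levels, with 1.25 and 2.02 CPM at 96 h, against 0.0556 and 0.187 CPM at 0 h.

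The falls near the ends numbered 7, and 4 of them stood together at the left end of chromosome I. SPAC212.08c (chromosome I, 11784 to 12994, plus strand), a GPI-anchored protein gene, had 0.275, 0.849 and 0.707 CPM at 96 h, against 16.6, 15.97 and 17.8 CPM at 0 h (log2 change -4.78 ± 0.39 (SE), adjusted p = 2.22e-06). SPAC212.12, another such gene, had 2.28, 2.59 and 1.79 CPM at 96 h, against 36.5, 30.7 and 36.004 CPM at 0 h (log2 change -3.95, adjusted p = 8.90e-07). Between them, the pseudogene SPAC212.07c fell to 0.389 ± 0.256 CPM, against 10.1 ± 0.197 CPM at 0 h (SD, n = 3 each; log2 change -4.69), and the non-coding RNA SPNCRNA.70 beside them had 0.354, 0.297 and 0.125 CPM at 96 h, against 6.39, 6.53 and 6.50 CPM at 0 h (log2 change -4.61). No 96 h library reached the level of any 0 h library in these 4 genes. The earlier means were lower: SPAC212.08c averaged 0 CPM at 24 h, 0.0286 CPM at 48 h and 0.289 CPM at 72 h. Farther out, the pseudogene SPAC212.09c went the other way, with 12.5, 8.96 and 8.11 CPM at 96 h, against 3.60, 4.66 and 5.65 CPM at 0 h (log2 change 1.09, adjusted p = 0.0342). Genes this close to the telomere exist as near-identical copies, so reads may have been assigned to the wrong copy and these values are uncertain. The same holds for the helicase genes at the outermost position: tlh2 on chromosome II had 43.6, 33.8 and 27.6 CPM at 96 h, against 14.99, 15.3 and 16.5 CPM at 0 h (log2 change 1.17, adjusted p = 9.60e-04), and tlh1 on chromosome I had 5.07, 6.37 and 3.54 CPM at 96 h, against 11.01, 13.5 and 11.8 CPM at 0 h, which did not pass (log2 change -1.28, adjusted p = 0.0685). With 96 h and 0 h fitted alone tlh1 passed (adjusted p = 0.00753).

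Among non-coding RNAs, the 4 largest rises are those named above. The largest fall was that of SPNCRNA.366 (chromosome II, 1617399 to 1617921, plus strand), annotated as a centromeric long non-coding RNA, with 0.118, 0.255 and 0.125 CPM at 96 h, against 8.77, 10.6 and 12.4 CPM at 0 h (log2 change -5.96 ± 0.33 (SE), adjusted p = 3.74e-08). Its levels were near 0 in every library from 24 h on, with means of 0, 0.0548 and 0.103 CPM at 24, 48 and 72 h. SPNCRNA.504 had 106, 105 and 91.8 CPM at 96 h, against 1469, 1744 and 1572 CPM at 0 h (log2 change -3.98). It is overlapped over 69.7% of its length by gut2-antisense-1 on the same strand, whose reads cannot be told apart from its own. The other 2 of the 4 largest falls, SPNCRNA.70 and SPBP8B7.18c-antisense-1, lie beside and across genes already described.

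Genes of meiosis and mating were tested in 5 lists. Of 8 meiotic transcripts that the RNA-binding protein Mmi1 is known to remove during growth, 3 were higher and 1 lower, against 7.56% and 4.94% of all genes. The gene mug8 had 21.9, 24.7 and 28.9 CPM at 96 h, against 15.2, 16.6 and 12.9 CPM at 0 h (log2 change 0.75, adjusted p = 9.24e-04). The meiotic cohesin gene rec8 had 5.74, 7.13 and 7.41 CPM at 96 h, against 4.23, 3.74 and 5.24 CPM at 0 h (log2 change 0.62, adjusted p = 0.0258) and spo5 a log2 change of 0.42 (adjusted p = 0.0494). The rec8 call was lost on leaving out 0 h replicate 1 (0.0877) or 2 (0.119), or 96 h replicate 2 (0.0884) or 3 (0.0806), and the spo5 call without each of the 5 libraries other than 96 h replicate 3, at adjusted p up to 0.166. With 96 h and 0 h fitted alone both calls were lost too (0.0669 for rec8 and 0.139 for spo5). That of spo5 was also lost with the replicate number as a block (0.0526). The gene mcp5, which encodes a dynein-anchoring factor, fell to 13.4 ± 0.731 CPM, against 22.9 ± 1.72 CPM at 0 h (SD, n = 3 each; log2 change -0.77, adjusted p = 1.56e-04), and is covered over its whole length by mcp5-antisense-1, so its strand is not known. The meiotic regulator gene mei4 had 12.2, 13.7 and 15.6 CPM at 96 h, against 13.1, 15.2 and 12.3 CPM at 0 h and did not pass. Of the 8 genes of the Mmi1 elimination machinery, red1 alone passed (107, 106 and 132 CPM at 96 h, against 86.1, 92.5 and 93.6 CPM at 0 h; log2 change 0.34, adjusted p = 0.00548).

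A fission yeast culture can hold cells of both mating types, M and P, and genes of both were detected in every library. The 7 M-cell genes summed to 371, 524 and 466 CPM at 96 h, against 586, 725 and 586 CPM at 0 h, with no gene at 0. The 4 P-cell genes summed to 687, 701 and 692 CPM at 96 h, against 725, 719 and 697 CPM at 0 h. In such bulk samples fewer cells of a type and less RNA per cell cannot be told apart. The M-factor pheromone genes mfm1 and mfm2 were the 2 that fell, mfm1 to 15.4 ± 2.68 CPM, against 32.1 ± 10.5 CPM at 0 h (SD, n = 3 each; log2 change -1.06, adjusted p = 0.00187), and mfm2 to 131 ± 31.2 CPM, against 298 ± 50.7 CPM at 0 h (SD, n = 3 each; log2 change -1.19, adjusted p = 0.00847). The third pheromone gene, mfm3, did not pass (log2 change -0.07). Of the 7 M-cell genes 2 were thus lower, against 4.94% of all genes tested. Fitted changes were above 0 in 3 of the 7, so the list did not move together. Among them mam3 had a log2 change of 0.48 (adjusted p = 0.0540) and passed with DESeq2's Wald test (adjusted p = 0.0200). With edgeR's quasi-likelihood test 0 of the 4 P-cell genes and 0 of 9 genes of the Ste11 mating pathway passed. Over all genes tested 12.5% passed, a share at which lists this small can hold no call. At an unadjusted p under 0.05 these counts were 0 and 3, and with DESeq2's Wald test 0 and 2. The part of mating type in the other results was not tested.

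Metal and nutrient genes were read against the 7.56% higher and 4.94% lower of all genes. Of 9 iron and haem uptake genes, shu1 and str3 were higher (22.2%) and 0 lower. The ferric reductase gene frp1 had 30.5, 34.8 and 108 CPM at 96 h, against 7.62, 52.99 and 16.9 CPM at 0 h and overlapped between the groups. Summed over the 9 genes the level was 3310.3, 2477 and 4109 CPM at 96 h, against 2778, 3702 and 2607 CPM at 0 h, which also overlap. Of the 2 iron regulator genes, php4 and fep1, 0 passed with edgeR, with DESeq2 or at an unadjusted p under 0.05. Of 8 copper and zinc genes, the metallothionein gene zym1 rose, with 59.5, 51.8 and 28.4 CPM at 96 h, against 15.9, 10.6 and 11.2 CPM at 0 h (log2 change 1.89, adjusted p = 3.09e-04). Among 8 hexose transporter genes, ght3 and ght4 were higher and ght5 and ght8 lower, 25% each way. The gene ght5, which encodes the main glucose transporter for growth at low glucose, fell to 591 ± 71.96 CPM, against 1129 ± 91.7 CPM at 0 h (SD, n = 3 each; log2 change -0.93, adjusted p = 6.66e-05). The fall of ght8 was small (log2 change -0.35, adjusted p = 0.00998). Its call was lost without 0 h replicate 1 (adjusted p = 0.0575) and with 96 h and 0 h fitted alone (0.0769). Of 6 genes repressed by glucose, fbp1 passed (log2 change 0.95, adjusted p = 0.0489), a call lost without each library except 96 h replicate 3, at up to 0.135. The fbp1 call was also lost with the replicate number as a block (0.0526). Of 10 genes induced by nitrogen starvation, the amino-acid permease gene isp5, 101 kb from an end of chromosome I, was the 1 that rose (51.4, 93.4 and 78.4 CPM at 96 h, against 22.2, 27.99 and 25.9 CPM at 0 h; log2 change 1.55, adjusted p = 0.00171).

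Of 12 stress genes, 3 were higher and 1 lower, against 7.56% and 4.94% of all genes. The small heat-shock protein gene hsp16 had 288, 276 and 96.2 CPM at 96 h, against 44.001, 50.4 and 64.3 CPM at 0 h (log2 change 2.06, adjusted p = 0.00147), so that 96 h replicate 3 stood below the other 2. With 96 h and 0 h fitted alone its adjusted p was 0.0523. zym1, also on this list, is given above, and tms1 passed (log2 change 0.67, adjusted p = 0.0460), a call lost without each library except 96 h replicate 3, at up to 0.209. The phosphatase gene pyp2, which acts on the stress kinase Sty1, fell to 27.3 ± 2.79 CPM, against 58.9 ± 15.3 CPM at 0 h (SD, n = 3 each; log2 change -1.11, adjusted p = 7.82e-05). Of 8 heat-shock chaperone genes, 0 passed the edgeR quasi-likelihood test or DESeq2's Wald test, 0 had an unadjusted p under 0.05, and their log2 changes ran from -0.60 to -0.05. The glyceraldehyde-3-phosphate dehydrogenase gene gpd3 had 614, 1043 and 390.4 CPM at 96 h, against 154, 196 and 173 CPM at 0 h (log2 change 1.97, adjusted p = 0.00415), the largest change among 7 glycolytic genes, of which 1 rose and 1, SPAC1F8.07c, fell (log2 change -0.46, adjusted p = 0.00436).

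Flocculins are adhesins of the cell surface. Here 6 of 11 genes for flocculins and their regulators passed upward and 0 downward, against 7.56% and 4.94% of all genes. Apart from pfl7 these included pfl6 and pfl9, both within 100 kb of an end of chromosome I and both under 2 CPM in every library, and the regulator mbx2, with 140.1, 225 and 193 CPM at 96 h, against 107, 106 and 103 CPM at 0 h (log2 change 0.82, adjusted p = 0.00926). The mbx2 call was lost without 96 h replicate 2 (adjusted p = 0.0532), that of pfl5 without 0 h replicate 1 (0.0634) or 2 (0.0599) or 96 h replicate 1 (0.0698), and that of fta5 without each library except 96 h replicate 3, at up to 0.0881. In gsf2, the dominant flocculin gene, 96 h replicate 1 stood apart: the levels were 243, 36.5 and 31.1 CPM at 96 h, against 32.8, 27.5 and 28.5 CPM at 0 h, and the gene did not pass (adjusted p = 0.308). pfl3 showed the same library apart, with 344, 36.8 and 55.01 CPM at 96 h, against 185, 118 and 142 CPM at 0 h.

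Histone genes leaned upward, with 11 of 11 fitted changes above 0 and a median log2 change of 0.38, against 0.00 over all genes. Summed, the 11 genes were at 8318, 8781 and 7947 CPM at 96 h, against 5942, 6158 and 6701 CPM at 0 h, without overlap. The test passed 3 of them, against 5 with library totals, 6 with DESeq2's Wald test, 9 with 96 h and 0 h fitted alone and 0 or 1 without any single library: htb1 (log2 change 0.48, adjusted p = 0.0479), hhf2 (log2 change 0.54, adjusted p = 0.0466) and the centromeric histone gene cnp1 (log2 change 0.32, adjusted p = 0.0283). The calls of htb1 and hhf2 were lost without any 1 of the 6 libraries, at adjusted p up to 0.158 and 0.137, and that of cnp1 without 0 h replicate 1 (0.111) or 2 (0.102) or 96 h replicate 1 (0.111). The cytosolic ribosomal protein genes gave 1 call among 127, rps1401, which was higher (log2 change 0.45, adjusted p = 0.0266). Of the 127 fitted changes, 3 were above 0, 32 genes had an unadjusted p under 0.05 and DESeq2's Wald test called 6. Their median log2 change was -0.22, and their sum was 142508, 113751 and 129153 CPM at 96 h, against 149222, 158482 and 138970.0 CPM at 0 h, with overlap.

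The 96 h libraries were also set directly against the times before and after. Against 72 h, 81 of 6664 genes had changed (1.22%), 25 higher (0.375%) and 56 lower (0.840%), and 8 (0.120%) and 31 (0.465%) of these by at least 2-fold. Without 72 h replicate 1, which stood apart from the other 72 h libraries in iron genes, 260 genes passed, and 32 passed without 72 h replicate 2. Counts without 96 h replicates 1, 2 and 3 were 48, 39 and 36. The largest rise was in snu4, the U4 small nuclear RNA, with 5.23, 5.35 and 6.82 CPM at 96 h, against 2.09, 1.01 and 0.954 CPM at 72 h (log2 change 2.11, adjusted p = 5.89e-04), a call lost with 96 h and 72 h fitted alone (0.0535). As polyadenylated RNA was sequenced, these counts need not follow the whole amount of U4 RNA. SPBPB2B2.08 (log2 change 1.93, adjusted p = 0.0454) and SPBPB2B2.07c (log2 change 1.85, adjusted p = 0.0252) came next. Both calls were lost without 72 h replicate 2 (0.164 and 0.0942) or 3 (0.190 and 0.136) and with each 96 h library left out, at up to 0.148 and 0.0995. That of SPBPB2B2.08 was also lost with library totals (0.0563) and among genes overlapping no other (0.0517).

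The largest falls against 72 h were in 1 non-coding RNA and 2 subtelomeric genes. SPNCRNA.312 had 4.80, 4.29 and 3.91 CPM at 96 h, against 39.7, 42.96 and 34.8 CPM at 72 h (log2 change -3.17, adjusted p = 8.68e-06), and its mean was 152 CPM at 48 h and 4.06 CPM at 0 h. It lies almost wholly within SPBC354.11c. The uncharacterized gene SPBPB21E7.10 had 1.14, 0.977 and 1.54 CPM at 96 h, against 12.8, 5.99 and 5.03 CPM at 72 h (log2 change -2.69, adjusted p = 4.74e-04), and SPAC869.09, a Con-6 family gene, had 2.48, 3.02 and 2.41 CPM, against 13.4, 14.6 and 11.8 CPM at 72 h (log2 change -2.33, adjusted p = 3.98e-04). SPBPB21E7.10 is overlapped over 78.6% of its length by SPBPB21E7.11 and SPAC869.09 over 83.8% by its antisense RNA, both on the other strand, whose reads cannot be told apart from theirs. The SPBPB21E7.10 call was lost with 96 h and 72 h fitted alone (0.0582). Both subtelomeric genes were higher at 96 h than at 0 h, where SPBPB21E7.10 had 1 count in the 3 libraries together (ratio 83.6 with an exact 95% counting interval from 14.6 to 3338). In the subtelomeric windows 8 genes were higher and 16 lower of 160, with a median log2 change of -0.12. With both times fitted alone 5 were higher and 4 lower, and among genes overlapping no other 4 and 5. The higher genes numbered 1 on leaving out 72 h replicate 3 or 96 h replicate 2, and 2 on leaving out 72 h replicate 2 or 96 h replicate 1 or 3. Of the hexose transporters, 4 of 8 were lower than at 72 h, ght3 among them (log2 change -1.61, adjusted p = 0.00682). The calls of the other 3, ght1, ght4 and ght5, were lost without 72 h replicate 2 or 96 h replicate 3, at adjusted p from 0.0671 to 0.113, those of ght1 and ght4 also without 96 h replicate 1 (0.0628 and 0.0552) and that of ght5 without 96 h replicate 2 (0.119) or 72 h replicate 3 (0.0575). With 96 h and 72 h fitted alone the ght5 call was lost too (0.176).

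At 120 h, 528 genes (7.92%) differed from 96 h: 129 were higher (1.94%) and 399 lower (5.99%). With library totals the split was 63 higher and 415 lower. The count fell to 176 on leaving out 120 h replicate 2, to 208 on leaving out 120 h replicate 3 and to 191 on leaving out 96 h replicate 2. In the subtelomeric windows 5 genes were higher and 24 lower at 120 h, with a median log2 change of -0.67. The lower genes numbered 9 on leaving out 96 h replicate 2 or 120 h replicate 2 and 12 on leaving out 120 h replicate 3, and the higher genes 0 in each of these fits. The higher genes numbered 3 on leaving out 96 h replicate 1 or 120 h replicate 1 and with library totals. SPBPB2B2.08, for example, had 14.1, 55.5 and 60.2 CPM at 120 h, against 148, 202 and 117 CPM at 96 h (log2 change -1.84, adjusted p = 0.0199), a call lost without 96 h replicate 2 (adjusted p = 0.0853) and with both times fitted alone (0.141). Of the 11 histone genes, 7 were lower at 120 h than at 96 h (median log2 change -0.65), a count that dropped to 0 on leaving out 120 h replicate 2, to 2 on leaving out 96 h replicate 2 and to 4 on leaving out 120 h replicate 3. Of the 504 genes higher at 96 h than at 0 h, 158 had their highest mean of the 6 times at 96 h, and of the 329 lower genes 116 had their lowest mean there. These genes were called by their 96 h level, which favours such means, and the share over all genes was not counted.

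Iron genes differed between 120 h and 96 h. The largest rises at 120 h over 96 h were in frp1, with 1096, 1909 and 1983 CPM at 120 h, against 30.5, 34.8 and 108 CPM at 96 h (log2 change 4.84, adjusted p = 0.0343), in str3 (1975, 1311 and 1418 CPM, against 104, 20.1 and 140.5 CPM; adjusted p = 0.0331) and in shu1 (147, 484 and 635 CPM, against 52.2, 39.9 and 30.001 CPM; adjusted p = 0.0471). In all, 5 of 9 uptake genes were higher at 120 h. Their summed level was 11879.8, 11691 and 12109 CPM at 120 h, against 3310.3, 2477 and 4109 CPM at 96 h. The groups do not overlap. The count of higher genes was 8 with DESeq2's Wald test, 3 with library totals, 0 on leaving out 120 h replicate 2 or 3 or 96 h replicate 1 or 2, 2 on leaving out 96 h replicate 3 and 4 on leaving out 120 h replicate 1. The str3 call was lost without any 1 library and the frp1 and shu1 calls without any except 120 h replicate 1, at adjusted p up to 0.134 for frp1, 0.121 for str3 and 0.150 for shu1. With library totals shu1 did not pass (0.0571). The iron repressor gene fep1 was lower at 120 h (log2 change -2.15, adjusted p = 0.00215), and php4, which represses iron-using genes, was higher (log2 change 1.03, adjusted p = 0.0242), a call lost without any 1 library except 96 h replicate 3, at up to 0.110.

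The largest falls at 120 h relative to 96 h were in genes for catalase, a haem enzyme, and for the iron-sulfur enzyme succinate dehydrogenase. The catalase gene ctt1 had 11.6, 5.95 and 5.31 CPM at 120 h, against 98.3, 199 and 44.4 CPM at 96 h (log2 change -3.91, adjusted p = 0.00913). The succinate dehydrogenase iron-sulfur subunit gene sdh2 had 41.5, 15.4 and 14.5 CPM, against 328, 368 and 276 CPM at 96 h (log2 change -3.77, adjusted p = 0.00639), and the anchor subunit gene sdh4 31.999, 9.37 and 9.74 CPM, against 156, 162 and 146 CPM at 96 h (log2 change -3.19, adjusted p = 0.0163). The sdh4 call was lost without 120 h replicate 2 (0.0789) or 3 (0.0726). Between 96 h and 0 h none of the 3 genes passed the test, with adjusted p from 0.316 to 0.938. Summed over the 9 uptake genes, the levels were 6706, 2529 and 7998 CPM at 24 h, 3594, 8474 and 8024 CPM at 48 h and 3408, 8613 and 9985 CPM at 72 h for replicates 1 to 3. At each of these times 2 libraries stood above every library of 0 h and 96 h, and 1 did not. Between 96 h and 72 h the 9 uptake genes had a median log2 change of -1.82, with 1 above 0. None passed, while DESeq2's Wald test called 2 lower and the fit without 72 h replicate 1 called 4 lower. shu1 averaged 534, 1056 and 640 CPM at 24, 48 and 72 h, against 40.7 CPM at 96 h (96 h over 72 h: log2 change -3.98, adjusted p = 0.0803).

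**Figure D5:**
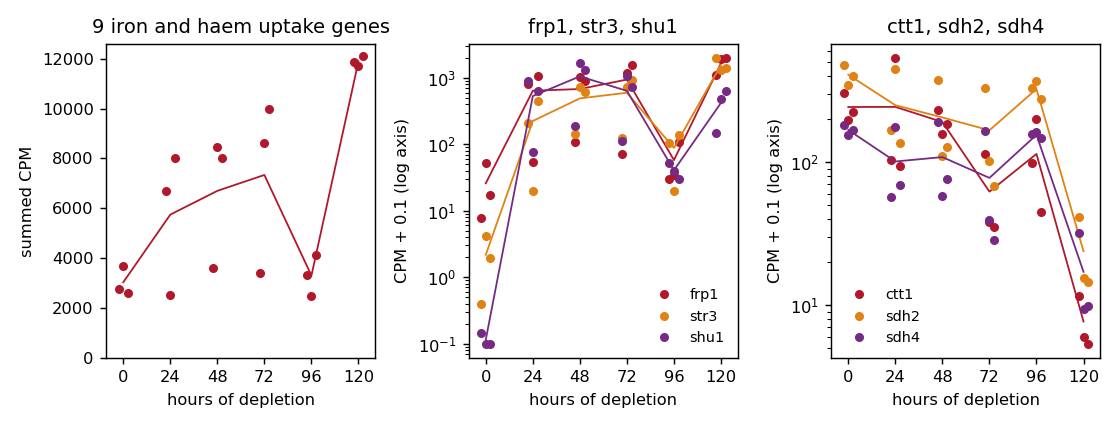
Levels at each of the 6 times of depletion, 1 point per library with a line through the means: the summed CPM of 9 iron and haem uptake genes (left), frp1, str3 and shu1 (middle) and ctt1, sdh2 and sdh4 (right), the last 2 panels as CPM + 0.1 on log axes. The 3 libraries at 96 h sit near the 0 h libraries in the summed uptake level, and the 3 at 120 h are the highest in it. The 120 h means of ctt1, sdh2 and sdh4 are the lowest of the 6 times.

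Levels in other libraries of the series are given beside these for orientation, from tables that were normalized separately, with no test. Untreated cells of the same genotype in the memory experiment had 32.9 ± 2.10 CPM of clr4 (SD, n = 3), between the 12.5 CPM at 96 h and the 50.99 CPM at 0 h here. Biological replicates 1 and 2 of the strain with both mst2 and epe1 deleted averaged 14.7 and 15.8 CPM, which is near the 96 h level. For SPBPB10D8.02c the same deletion libraries averaged 1.36 and 0.757 CPM and the memory experiment's untreated cells 1.80 CPM, all near the 0.795 CPM at 0 h and far from the 275 CPM at 96 h. In the memory experiment's untreated cells str3 averaged 39.1 ± 15.6 CPM (SD, n = 3), between the 2.07 CPM at 0 h and the 88.2 CPM at 96 h. There frp1 averaged 185 ± 39.4 CPM (SD, n = 3), above its 25.8 CPM at 0 h and 57.9 CPM at 96 h. In the same cells shu1 averaged 0.116 CPM, near its 0.0141 CPM at 0 h and far from its 40.7 CPM at 96 h. mug14 averaged 109 and 53.9 CPM in the deletion strain, between its levels at 96 h and 0 h. The thiamine-repressed gene thi9 averaged 704 and 675 CPM there and 709 CPM in the memory experiment's untreated cells. These values are close to its 0 h level and far above its 96 h level. The titles of the deletion libraries do not mention TN, and the part of TN in these levels was not tested.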

How the data were processed

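The deposited counts per gene of 39 libraries were used, and 18 of them, 3 at each of 6 times, entered the fits. The authors trimmed reads with Trimmomatic and aligned them with STAR to ASM294v2, per the submitters' processing notes. The counting tool and its use of strand are not given in the sources used here. Of 677 genes nested inside one on the other strand, 675 were counted no higher than the gene around them, and 69.3% of genes overlap another. Columns were matched to samples by time and replicate digit, and 6 other sample columns were not used. Products came from RefSeq (ASM294v3), to which 6594 of 6711 identifiers matched, and coordinates from the deposited files.

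Genes were filtered with filterByExpr, scaled by TMM and tested with edgeR 4.0.16 (robust quasi-likelihood fit, R 4.3.3, limma 3.58.1) at a Benjamini-Hochberg adjusted p of 0.05. The SE of a log2 change is its size over the square root of F. The fit was tested on simulated data with 200 changed genes. Alternatives used DESeq2 1.42.0, other scalings, no filter, genes overlapping no other, compared groups only, a replicate block and each library left out. Counting intervals cover counting error only. Same-numbered libraries of 96 h and 72 h deviated together (correlations 0.24, 0.42 and 0.18 for replicates 1 to 3). The main fit left this pairing out, and only the replicate block used it. That pairing comes from the data, not the labels.

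Genes named are the 10 protein-coding genes and 4 non-coding RNAs with the largest change each way at 96 h against 0 h, and the 3 genes with the largest change each way against 72 h and at 120 h. Only changed genes with groups that do not overlap and at least 5 CPM in the higher group could be chosen. The text also names epe1, mst2, clr4 and its neighbours, list members, and subtelomeric genes chosen after their values were seen. Members and lists were chosen with earlier results of these data known.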

Additional observations from a re-analysis of the deposited data

How the results depend on the processing

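Of the values per gene and alternative between 96 h and 0 h, 2350 kept their side of the threshold, 57 lost a call and 46 gained one. No value called in the main fit or in the alternative reversed its direction. Direction was not compared for values called in neither. The count of 833 changed genes was 279 among genes that overlap no other, where fewer genes were tested, and lay between 494 and 741 with 1 library left out. Against 72 h the count of 81 was 24 among genes overlapping no other, 30 with the compared groups only, 173 with DESeq2's Wald test and between 32 and 260 with 1 library left out. At 120 h against 96 h the count of 528 was 178 among genes overlapping no other, 856 with DESeq2's Wald test and between 176 and 420 with 1 library left out. For changes other than the fewer genes and samples tested, the cause was not tested. With the replicate number as a block 1094 genes changed between 96 h and 0 h and 786 between 120 h and 96 h. Same-numbered libraries of 96 h and 0 h had deviations that correlated at 0.07, -0.07 and 0.17 for replicates 1 to 3. Those of 120 h and 96 h correlated at 0.43, 0.23 and -0.04, so these values do not settle whether they are paired. Same-numbered libraries of 96 h and 72 h did deviate together. There the block gave 95 changed genes, with 9 higher and 15 lower in the subtelomeric windows. Among named genes and members of the lists other than the subtelomeric and ribosomal ones it added isp4 and changed no other call. Depth limits genes of a few counts, such as shu1 at 0 h.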
